A study of Mus musculus with 24 samples.

Results

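Transcripts of 9 Krüppel-like factors (Klf2, Klf3, Klf4, Klf6, Klf9, Klf10, Klf11, Klf13 and Klf15) and of the related factor Sp5 were followed over the day in mouse liver with and without the Rev-erb receptors. The members were taken by name, with all 13 probes that the platform annotation assigns to the 10 genes. Of these, 7 probes for 7 genes passed the detection filter, among 7272 genes tested in all. Samples came from livers of male mice, 20 weeks old, on the c57Bl6/J background. The double knockout (DKO), labelled Reverbalpha/beta Alb Cre+, lacks both Rev-erb alpha and Rev-erb beta where the albumin promoter drives Cre. That promoter is active mainly in hepatocytes, and whether the other cells of the liver keep both receptors was not measured. The wild type (WT) is labelled Reverbalpha/beta Alb Cre-, and the sources used here do not say whether it carries floxed alleles. Each genotype was sampled at 6 times, ZT0, ZT4, ZT8, ZT12, ZT16 and ZT20, zeitgeber times in hours after lights on, with 2 arrays per genotype and time that the labels call technical replicates.

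Krüppel-like factors and Sp proteins are one family of zinc finger transcription factors that bind GC-rich and CACCC-type elements through a shared carboxy-terminal block of fingers. Their other domains differ, so that some members mainly activate and others mainly repress, for instance by recruiting CtBP or Sin3 corepressors. In liver several members respond to hormones, feeding or injury, and Klf10 and Klf15 are known in mice as outputs of the circadian clock. Rev-erb alpha and Rev-erb beta are nuclear receptors of that clock and repress transcription.

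Across the arrays the median raw signal was 245 to 341 units, 34.8 to 40.2% of 25697 probes were detected, and paired arrays of 1 group had correlations of 0.989 to 0.994. The 12 arrays of a genotype were averaged to 6 values, and since nothing says how many animals lie behind an RNA sample, the p-values reflect no more than how much these samples vary, which may be technical. Of the 3 slides, the first carried DKO from ZT0 to ZT12 and the third WT from ZT8 to ZT20. Slide 2 carried both genotypes, DKO from ZT16 and ZT20 beside WT from ZT0 and ZT4. At any single time slide and genotype cannot be told apart. Of the hepatocyte markers, Ttr, Apoa1 and Serpina1c stood at 16.06 to 16.13 on the log2 scale in every group, where the highest gene mean was 16.13, so that their level is at the top of the array's range and can show no difference in hepatocyte content. Hnf4a stood at 13.19 to 13.98, whereas the Alb probe was detected on 8 WT arrays and 1 DKO array of 12 each and the Fgb probe on 0. The probes of the targeted genes were higher in the libraries labelled DKO, Nr1d1 by 1.60 ± 0.29 log2 (3.02-fold, 6 of 6 times, limma adjusted p = 0.0135) and Nr1d2 by 0.52 ± 0.12 (4 of 6 times, adjusted p = 0.0265). The sources used here do not place these probes relative to the deleted parts, so the values do not check the labels, and DKO and WT throughout mean the libraries so labelled. The DKO ZT0 sample stood apart in genes of other cell types. Its summed signal was 6050 for 8 neutrophil and myeloid markers (other DKO samples 896.4 to 2170, WT 797.0 to 1297) and 23890 for 6 Kupffer cell and macrophage markers on the array (other DKO samples 9498 to 13234, WT 6657 to 11129). Of the neutrophil and myeloid markers, Ngp, Camp, Retnlg, Itgam and Cd177 were detected on 0 arrays. The part of these cells in the results was not tested, and results that could rest on that sample are also given without it.

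Promoter sequences were available for 9 of the 10 members from RefSeq (GRCm38.p6), each from 250 bases before to 50 bases after the annotated start. Sp5 is shown because it is the member that differed between the genotypes, and Klf13 because it had the widest daily range in WT. Capitals mark every match, on either strand, to the E-box CACGTG, the D-box TTANGTAA, the nuclear receptor half-site AGGTCA, the cAMP response element TGACGTCA, the GC box GGGCGG and the CACCC box CCACCC. Matches may overlap, as the GC box and CACCC box of Klf13 do.
Sp5 promoter, chr2:70474673-70474972, plus strand: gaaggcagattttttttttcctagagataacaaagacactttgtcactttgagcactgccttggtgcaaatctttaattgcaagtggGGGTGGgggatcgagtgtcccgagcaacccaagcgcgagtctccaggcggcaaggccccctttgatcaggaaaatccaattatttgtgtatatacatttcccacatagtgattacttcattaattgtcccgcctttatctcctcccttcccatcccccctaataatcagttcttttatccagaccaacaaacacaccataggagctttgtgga
Klf13 promoter, chr7:63938866-63939165, minus strand: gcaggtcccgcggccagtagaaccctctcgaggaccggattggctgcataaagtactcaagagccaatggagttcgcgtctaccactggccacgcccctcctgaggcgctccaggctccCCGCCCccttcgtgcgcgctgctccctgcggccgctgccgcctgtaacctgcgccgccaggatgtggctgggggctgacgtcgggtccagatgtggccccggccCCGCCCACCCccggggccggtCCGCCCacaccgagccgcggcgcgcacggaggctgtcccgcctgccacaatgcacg

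The Sp5 window had a GC content of 45%, against 63 to 77.7% in the other 8 members. It held 1 CACCC box, on the opposite strand, and none of the other letters searched. The Klf13 window held 3 GC boxes and 1 CACCC box. GC boxes were found in 7 of the 9 members and CACCC boxes in 4, against 35.7% and 31.5% of all 32851 promoter windows of the same length. The half-site AGGTCA, the core of the element that Rev-erb receptors bind, was in 0 of the 9 windows and in 16.3% of all windows, and its extended form TAGGTCA was in 0 of 9 and in 2.61%. The D-box and the cAMP response element were in 0 of 9 as well, against 2.32% and 1.79%. These counts say only that the letters are not in these 300 bases.

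The E-box, the element of the clock activators CLOCK and BMAL1, was found in 4 of the 9 members, against 7.15% of all windows. As for the GC box, that share comes from windows not matched for GC content. Of the 4, Klf4 and Klf11 did not pass the detection filter and Klf15 was near the detection limit. The 6 E-box occurrences are shown with 12 bases on either side, written along the gene's strand, with the distance of the first E-box base from the start site and the E-box in capitals. Klf15 carried 3 of them, and its window surrounds an annotated start inside the gene, whose first base is at chr6:90461043.
Klf4 at -182, chr4:55532640-55532669, minus strand: cgcccccgccccCACGTGcgcggagtttgt
Klf6 at -43, chr13:5861434-5861463, plus strand: ctccaagctggtCACGTGgggggagaaggg
Klf11 at -214, chr12:24651145-24651174, plus strand: cccggaccaaaaCACGTGccgccgcccgcc
Klf15 at -228, chr6:90462336-90462365, plus strand: ctcccgaggtccCACGTGgtctgcacttcg
Klf15 at -172, chr6:90462392-90462421, plus strand: tagaacccgtctCACGTGcgcatcggagga
Klf15 at -3, chr6:90462561-90462590, plus strand: cgcccgcggcgtCACGTGagcggccggaga

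Sp5, a member of the Sp branch and a known target of Wnt and beta-catenin signalling, was lower in DKO liver at every time. In WT its normalized log2 intensity was 8.85, 9.08, 8.96, 9.43, 9.05 and 8.68 from ZT0 to ZT20. In DKO it was 7.46, 7.89, 7.52, 8.28, 7.89 and 7.22. All 12 WT arrays lay above all 12 DKO arrays, with 8.63 on the lowest WT array and 8.38 on the highest DKO array, a separation found in either direction for 0.976% of all genes tested. The separation was already present before any correction, since the raw signal was 589.2 to 1033 units in WT and 354.6 to 506.9 units in DKO, with a median standard error over beads of 5.92% of the signal. The probe was detected on all 24 arrays.

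The daily mean of Sp5 fell 2.46-fold in DKO (-1.30 ± 0.15 log2, SE, n = 6 times per genotype, 95% interval -1.64 to -0.96, limma adjusted p = 0.00207). It was lower at 6 of 6 times, and an exact two-sided permutation test that exchanged genotypes at each time gave p = 0.03125, the smallest the 6 times allow. Sp5 was the only one of the 7 measured members that passed, where 9.31% of all genes passed. Among the 363 genes that fell, it ranked 35 by size. The size depended on the background correction, with -1.17 at an offset of 50, -0.76 with no correction and -0.77 in the authors' processed values, all past the threshold. With slides as fixed terms it was -2.00 and did not pass (limma adjusted p = 0.339), with slides as random terms it was -1.35 (adjusted p = 0.0123), and within slide 2, between different times, it was -1.41. Without the DKO ZT0 sample it was -1.32 (limma adjusted p = 0.00509).

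The Sp5 difference by time was -1.39, -1.19, -1.44, -1.15, -1.16 and -1.46 from ZT0 to ZT20. These are folds of 2.22 to 2.76, with 1 RNA sample per genotype and time and therefore no test. At each time Sp5 was past 2-fold with arrays that did not overlap, and 0 of the other 6 measured members were. The share of all genes past that mark in either direction was 7.59% at ZT0, 1.87% at ZT4, 5.14% at ZT8, 5.80% at ZT12, 3.33% at ZT16 and 4.47% at ZT20. Arrays that did not overlap, with no minimum size, were common among all genes, at 70.7%, 54.7%, 67.3%, 66.6%, 60.0% and 62.5% from ZT0 to ZT20. Sp5 was among the 10 genes (0.138%) that were lower in DKO past 2-fold, with arrays that did not overlap, at all 6 times. Both genotypes had their highest value at ZT12 and their lowest at ZT20. The fitted amplitude was 0.25 ± 0.15 in WT and 0.33 ± 0.15 in DKO (log2, SE), with fitted peaks at ZT 10.6 and ZT 11.0. Neither passed the rhythm test (limma adjusted p of 0.632 and 0.761), nor did the test of a difference in rhythm (adjusted p = 0.999).

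**Figure D1:**
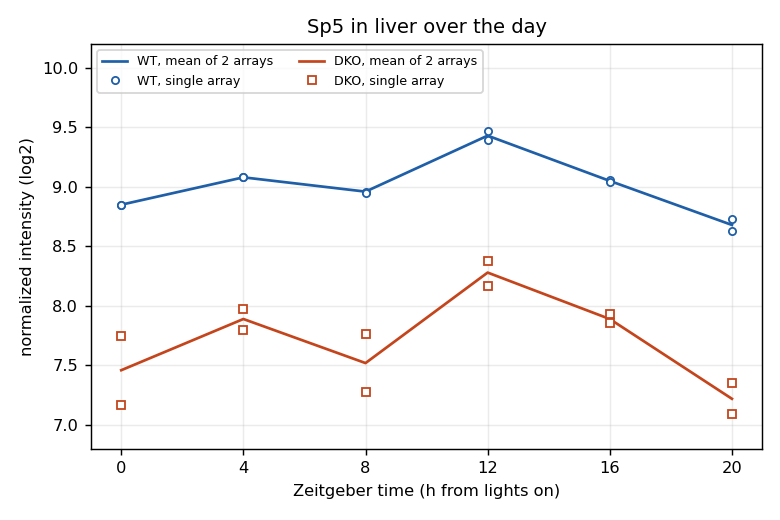
Normalized log2 intensity of Sp5 against zeitgeber time in h. Lines join the means of the 2 arrays of a genotype and time, and open symbols are single arrays. The WT arrays lie between 8.63 and 9.47 and the DKO arrays between 7.09 and 8.38.

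Sp5 is one of many Wnt-responsive genes, and 10 others of a list of 16 were measured. Of these, 0 rose and 0 fell, and the median difference of the 10 was -0.20 against 0.02 over all genes. Cyp2e1 stood at 16.11 in WT and 16.13 in DKO, at the top of the array's range, and can show no difference. Oat stood near that top, at 15.82 in WT and 15.83 in DKO. Rhbg, an ammonium transporter gene of the cells around the central vein, had the largest difference, -0.86 ± 0.37 log2 (SE, limma adjusted p = 0.160). It was detected on 11 WT and 6 DKO arrays, and the sign turned with slides as fixed terms (1.44) and within slide 2 (0.36). The following genes of the list were named after their values were seen, and with them all 10 measured genes are given. The feedback inhibitor gene Axin2, widely used as a readout of the pathway, differed by 0.05 ± 0.18, the secreted inhibitor gene Notum by 0.13 ± 0.13 and the receptor gene Lgr5 by -0.18 ± 0.16. With slides as fixed terms Axin2 was -0.63, Notum 0.12 and Lgr5 -0.67. Within slide 2 they were -0.36, 0.07 and 0.14, so that the value of Axin2 depended on how slides were handled. Tbx3, a T-box factor gene, differed by -0.66 ± 0.24 (limma adjusted p = 0.114), and by -0.88 without the DKO ZT0 sample, where it passed (adjusted p = 0.0349). With slides as fixed terms Tbx3 was -1.74 and did not pass (limma adjusted p = 0.446), and within slide 2 it was -0.71. The glutamine synthetase gene Glul differed by -0.36 ± 0.13 (limma adjusted p = 0.103), Cyp1a2 by -0.32 ± 0.13 (adjusted p = 0.147) and Slc1a2 by -0.22 ± 0.09 (adjusted p = 0.158). With slides as fixed terms Glul was 0.12, Cyp1a2 -0.25 and Slc1a2 -0.67, and within slide 2 they were -0.06, -0.42 and -0.30. At an unadjusted limma p under 0.05 stood Rhbg, Tbx3, Glul, Cyp1a2 and Slc1a2, all lower in DKO, where 28.6% of all genes were under that mark. With median scaling, where the median of all genes was -0.20, Tbx3 also passed (-0.90, limma adjusted p = 0.0203). None of these differences was tested against that of Sp5.

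**Figure D2:**
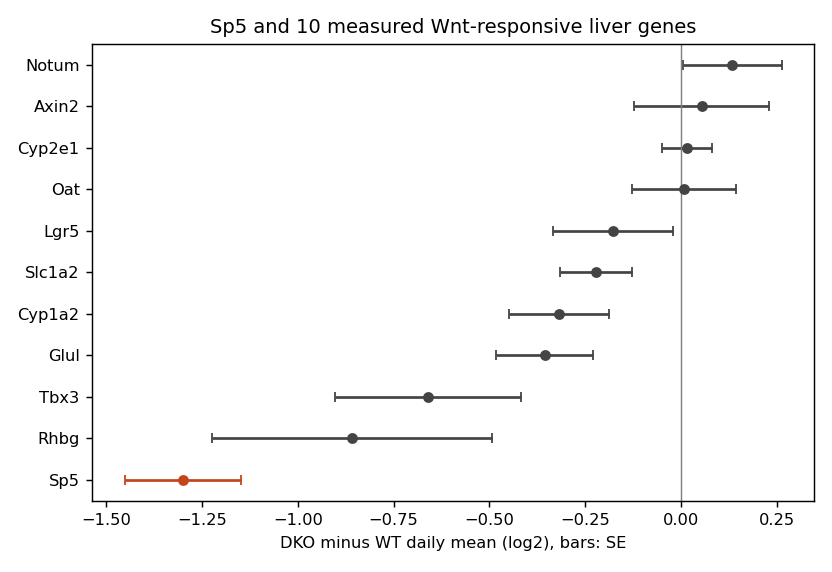
DKO minus WT difference of the daily mean on the log2 scale for Sp5 and the 10 measured Wnt-responsive genes. Points are estimates and bars their SE. Sp5 lies at -1.30, and the 10 other genes lie between -0.86 (Rhbg) and 0.13 (Notum). Cyp2e1 is at the top of the array's range and can show no difference.

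Klf9, a repressor induced by glucocorticoids and thyroid hormone, was detected on all arrays and did not pass the test. WT values were 13.01, 13.44, 13.22, 13.41, 12.68 and 12.97 from ZT0 to ZT20. DKO values were 13.10, 13.54, 13.59, 13.58, 13.16 and 13.08. DKO was higher at 6 of 6 times, while the ranges over the day overlapped widely. The daily mean differed by 0.22 ± 0.10 log2 (SE, n = 6 times per genotype, 95% interval -0.02 to 0.45), with limma adjusted p = 0.203. The exact two-sided permutation p, exchanging genotypes at each time, was 0.03125, unadjusted over the 7 members tested. With median scaling, which sets each array to a shared median, the difference was -0.01, and within slide 2, between different times, it was -0.11. That scaling moved the median of all genes from 0.02 to -0.20, so relative to the median Klf9 stood at 0.20 and 0.19. Klf9 was lowest at ZT16 in WT and at ZT20 in DKO, with fitted peaks at ZT 6.61 and ZT 8.35 and amplitudes of 0.30 and 0.31 ± 0.10.

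Klf13, a broadly expressed repressor and activator first studied in lymphocytes, covered the widest daily range in WT. It stood at 9.61, 9.44, 10.81, 10.72, 10.32 and 9.87 from ZT0 to ZT20 in WT, a range of 2.58-fold. In DKO it stood at 9.54, 9.70, 10.29, 10.49, 9.76 and 9.92, a range of 1.94-fold. The arrays of the genotypes did not overlap at ZT4 (DKO minus WT 0.26 log2), ZT8 (-0.53), ZT12 (-0.23) and ZT16 (-0.56), in both directions and without reaching 2-fold. The fitted amplitude was 0.67 ± 0.15 in WT with a peak at ZT 11.9 and 0.40 ± 0.15 in DKO with a peak at ZT 11.1. Neither passed over all genes (limma adjusted p of 0.170 and 0.680), and the test of the difference in rhythm gave adjusted p = 0.957. The 2 lowest WT values lay on slide 2 and the other 4 on slide 3, and with slides as fixed terms the WT amplitude was 0.41. With median scaling it was 0.90 and passed (limma adjusted p = 0.0493). Within slide 3 alone WT fell from 10.81 at ZT8 to 9.87 at ZT20, and within slide 1 alone DKO went from 9.54 at ZT0 to 10.49 at ZT12. The daily mean differed by -0.18 ± 0.15 (limma adjusted p = 0.456).

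Klf3, a repressor that recruits CtBP, was highest in the dark phase in both genotypes. WT values were 10.32, 10.12, 10.05, 10.21, 10.70 and 10.66, and DKO values were 10.32, 10.06, 10.10, 10.29, 10.58 and 10.43. The genotypes were 0.23 apart at ZT20, where arrays did not overlap, and at most 0.12 apart at the other times, and the daily mean by -0.05 ± 0.07 log2 (SE, n = 6 times per genotype, 95% interval -0.22 to 0.11, limma adjusted p = 0.685). With median scaling it was -0.30 and passed (adjusted p = 0.0375), or -0.10 relative to the median of all genes in that scaling. Its amplitude was 0.35 ± 0.07 in WT (peak at ZT 18.5) and 0.25 ± 0.07 in DKO (peak at ZT 17.7). The unadjusted p was 0.00327 and 0.0243, but neither passed over all genes (limma adjusted p of 0.143 and 0.582). With slides as fixed terms the amplitudes were 0.34 and 0.26. Over the 12 averages Klf3 ran opposite to Klf9, with Pearson r of -0.79 (-0.85 over the 6 WT and -0.77 over the 6 DKO values), a description of points that share arrays and slides.

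Klf15, a glucocorticoid-induced activator of amino acid catabolism and gluconeogenesis in mouse liver, was near the detection limit. It was detected on 8 WT and 4 DKO arrays, and its 2 arrays of a group differed with an SD of 0.52, against 0.07 to 0.20 for the other 6 measured members. WT values were 6.31, 6.36, 6.93, 6.75, 7.34 and 6.96 and DKO values 6.27, 6.56, 6.91, 6.63, 7.15 and 6.68. Both genotypes were lowest at ZT0 and highest at ZT16, where both arrays of each genotype were detected. The fitted amplitude was 0.42 ± 0.14 in WT and 0.28 ± 0.14 in DKO, and neither passed (limma adjusted p of 0.361 and 0.798). In the fit with slides as fixed terms they were 0.15 and 0.41. The daily mean differed by -0.07 ± 0.14 (95% interval -0.40 to 0.25, limma adjusted p = 0.770), but by 0.76 with slides as fixed terms and by 0.58 within slide 2.

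Klf2, a flow-responsive factor of endothelial cells, varied most in DKO. WT values were 8.99, 8.42, 9.11, 8.97, 8.70 and 8.12, and DKO values were 9.52, 8.19, 9.18, 8.51, 8.39 and 8.35. The highest value of all was DKO ZT0, 0.54 above WT with arrays that did not overlap. The summed signal of 8 endothelial markers was also highest in that sample, at 31209, against 19243 to 22876 in the other DKO samples and 19768 to 22983 in WT. Pecam1 stood at 9.37 there and at 8.42 to 8.58 in WT. Also above their WT ranges there were Cdh5 (7.60, WT 6.06 to 6.94), Clec4g (14.53, WT 13.87 to 14.10), Lyve1 (9.19, WT 7.32 to 8.68) and Egfl7 (12.21, WT 11.31 to 12.00). Clec4g was the brightest of the 8 and made up most of the sum. Eng, by contrast, stood at 9.27 there, below its WT range of 9.40 to 9.88. Stab2 (9.42) lay within its WT range of 8.60 to 9.44, and Kdr was detected on 0 arrays. The part of these markers in the Klf2 value was not tested, and in whole liver a change in the number of cells of a type and a change in RNA per cell cannot be told apart. The daily mean differed by -0.03 ± 0.26 (SE, n = 6 times per genotype, 95% interval -0.60 to 0.55, limma adjusted p = 0.959). It was -0.25 without the DKO ZT0 sample, -0.88 ± 0.78 with slides as fixed terms and -0.33 within slide 2.

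Klf6, a factor induced by injury in hepatocytes and stellate cells, did not pass the test. WT values were 9.28, 9.33, 9.22, 9.04, 9.03 and 9.36, and DKO values were 9.58, 9.72, 9.17, 9.34, 9.28 and 9.95. DKO was higher at 5 of 6 times, with the widest gap at ZT20 (1.51-fold) and arrays that did not overlap there. The daily mean differed by 0.30 ± 0.11 log2 (95% interval 0.06 to 0.54), which had an unadjusted p of 0.0203 but did not pass over all genes (limma adjusted p = 0.108). The estimate was 0.06 with median scaling, 0.55 with slides as fixed terms and 0.31 within slide 2. Relative to the median of all genes Klf6 stood at 0.28 in the main fit and at 0.27 with median scaling. A further Klf6 probe was detected on 0 of 24 arrays.

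**Figure D3:**
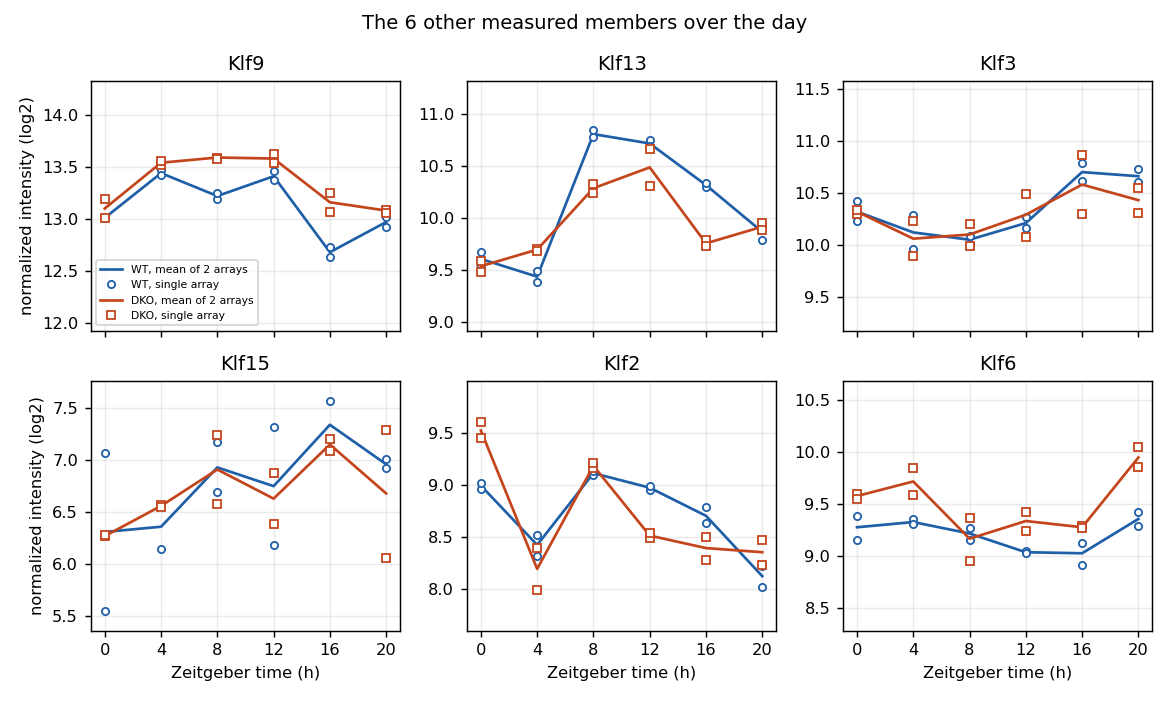
Normalized log2 intensity of the 6 other measured members against zeitgeber time in h, on axes of equal height centred on each gene. Lines join the means of the 2 arrays of a genotype and time, and open symbols are single arrays. Klf13 spans 9.44 to 10.81 in WT, and the Klf15 arrays scatter most.

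The other 3 members gave no level to compare. Klf10, induced by TGF-beta, was detected on 3 WT and 2 DKO arrays, and both arrays of a group were detected at WT ZT20 alone. Its values were 6.24 to 6.69 in WT and 6.32 to 7.08 in DKO. Klf11, its closest relative, was detected on 0 of 24 arrays. The 3 probes of Klf4, a factor of epithelia, endothelium and stem cells, were detected on 0, 0 and 1 arrays, the 1 being a DKO ZT0 array.

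Over the 7 measured members the median difference in daily mean was -0.05, against 0.02 over all genes, with 1 called down and 0 up. In the rhythm tests of WT, of DKO and of their difference, 0 of 7 passed each time, where 0.179%, 0.0550% and 0% of all genes passed (limma). At an unadjusted p under 0.05 there were 3 members in WT (Klf3, Klf13 and Klf15), 2 in DKO (Klf3 and Klf9) and 0 that differed, against 13.8%, 7.40% and 6.19% of all genes. The median fitted amplitude of the 7 was 0.30 in WT and 0.30 in DKO, against 0.19 and 0.16 over all genes.

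**Figure D4:**
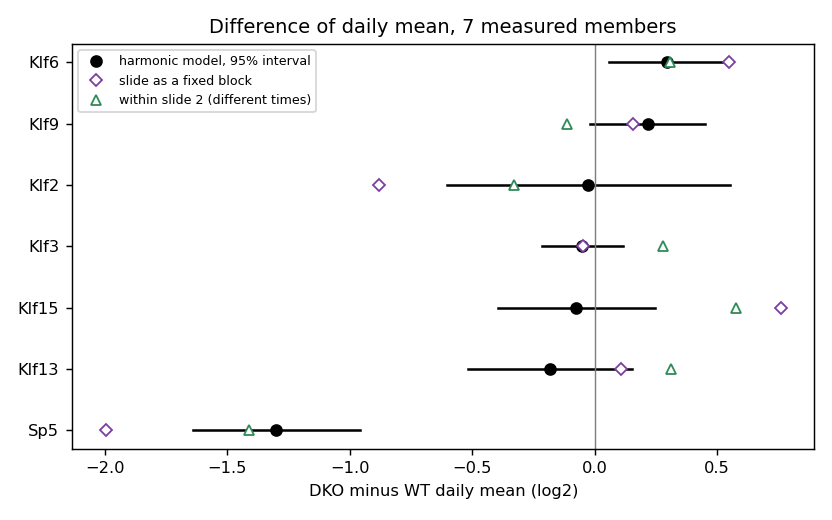
DKO minus WT difference of the daily mean (log2) of the 7 measured members. Filled points with 95% intervals are from the harmonic model, diamonds from the fit with slides as fixed terms and triangles from slide 2 alone, between different times. The Sp5 estimates lie at -1.30, -2.00 and -1.41, and for Klf3, Klf9, Klf13 and Klf15 the 3 estimates fall on both sides of 0.

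The genes whose 12 averages ran most like those of a member were named as a description. They were taken from the 7272 genes tested, leaving out the members themselves and symbols of predicted or clone-named transcripts. For Sp5 they were Tm7sf2, a sterol reductase gene (Pearson r = 0.93), and Mmgt1, a membrane magnesium transporter gene (r = 0.92), both of which also fell in daily mean (-0.51 and -0.47 log2, limma adjusted p of 0.0126 and 0.00785). For Klf9 they were Gpr180 (0.95) and Ift20 (0.92), for Klf13 Fam120b (0.96) and P2ry1 (0.94), and for Klf15 Fbxo33 (0.94) and Snx9 (0.91). Klf3 ran most like the lipid droplet gene Plin5 (0.89) and the alcohol dehydrogenase gene Adh1 (0.87), Klf2 like Brpf1 (0.92) and Atg16l1 (0.91), and Klf6 like Vmac (0.91) and Hmgn3 (0.89). All points share arrays and slides, and the genotype difference of Sp5 enters its likeness.

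Of 16 further family members, 13 had probes on the array and 3 were measured, and 0 of the 3 passed. The erythroid factor gene Klf1 differed by -0.03 ± 0.16, Klf7 by 0.05 ± 0.10 and Klf16 by 0.03 ± 0.09 (log2, SE, n = 6 times per genotype). Sp1, the founder of the Sp branch, was detected on 0 of 24 arrays. Of the corepressors and coactivators that the family uses, 5 of 11 were measured and 0 passed, with the largest difference for Sin3a (0.23 ± 0.09, limma adjusted p = 0.137, and -0.01 with median scaling) and a median of -0.01. With median scaling the median of all genes was -0.20.

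Lists of genes that act with members or follow them are read against all genes, of which 314 rose and 363 fell (9.31% called), with a median difference of 0.02. Of 11 measured glucocorticoid-responsive genes, 2 rose and 1 fell, with a median difference of 0.44. The cell cycle inhibitor gene Cdkn1a rose 4.54-fold (2.18 ± 0.33 log2, limma adjusted p = 0.00625), though it was detected on 8 WT and 12 DKO arrays, and the EGF receptor inhibitor gene Errfi1 rose 1.36-fold (0.44 ± 0.08, adjusted p = 0.0132). Pck1, the gluconeogenic enzyme gene, fell 1.48-fold (-0.56 ± 0.12, adjusted p = 0.0190), and was -0.19 with slides as fixed terms but 0.32 within slide 2, between different times. Of 12 measured genes of amino acid catabolism and gluconeogenesis linked to Klf15, 2 fell and 0 rose (median -0.17), close to the share of all genes called. They were Pck1 again and Bckdhb, a subunit of branched-chain ketoacid dehydrogenase (-0.62 ± 0.14, limma adjusted p = 0.0255), which was higher in DKO once slides were fixed terms (0.31) and within slide 2 (0.37).

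In the next 3 lists the calls were 1 of 8, 0 of 6 and 1 of 6 genes, close to the 9.31% called over all genes. Of 8 measured TGF-beta-responsive genes, 1 rose, the SMAD corepressor gene Skil (0.72 ± 0.16 log2, limma adjusted p = 0.0266), which turned to -0.26 with slides as fixed terms but was 0.32 within slide 2, and the median was 0.16. Of 6 measured immediate early genes, 0 passed (median 0.57), and the largest difference was that of Jun (0.94 ± 0.26, limma adjusted p = 0.0543). Of 6 measured genes linked to Klf2 and Klf3 in endothelium and blood cells, 1 rose (median 0.15). It was Lgals3, which encodes galectin-3 and is high in macrophages (0.92 ± 0.18, limma adjusted p = 0.0168). Lgals3 was at 0.80 without the DKO ZT0 sample, at 0.21 with slides as fixed terms and at 1.15 within slide 2. Of 15 measured clock genes 6 rose and 0 fell (median 0.32), and the 4 with the largest rises were Nr1d1 (1.60 ± 0.29), Arntl (1.51 ± 0.36), Dbp (1.39 ± 0.26) and Nfil3 (1.09 ± 0.29). With slides as fixed terms these 4 were 1.24, 0.66, 2.65 and -0.06, and within slide 2 they were 0.35, 0.21, 2.43 and 0.33. Among the 6 that rose were the targeted genes Nr1d1 and Nr1d2, whose probes are not placed relative to the deleted parts. Npas2 was also among them, and it passed the detection filter through DKO alone (detected on 0 WT and 5 DKO arrays). Without the DKO ZT0 sample Bckdhb, Skil, Arntl and Nfil3 did not pass (limma adjusted p of 0.0550, 0.0528, 0.0501 and 0.0884), and with median scaling Errfi1 did not (0.0667). Over all these lists 12 genes passed. Without ZT16 that count was 0, without ZT8 it was 1, and without ZT12 or ZT20 it was 2, whereas Sp5 passed without each of the 6 times (limma adjusted p of 0.00701 to 0.0271). With slides as random terms 2 of the list genes passed, Cdkn1a among them (adjusted p = 0.0399).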

How the data were processed

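Gene expression in 12 groups of liver RNA was read on 24 Illumina bead arrays, 2 technical replicates each. The deposited signals are intensity values on a linear scale, not normalized between arrays, and the submitters' processing notes name GenomeStudio. The deposited detection p-value is a detection call for each probe and array, per the file headers. The authors' processed intensity values (array medians 278.76 to 278.97, linear scale, no centring seen, normalization method unknown) were an alternative. No genome build is given for the array.

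Probes were named from the platform annotation (23978 of 25697 with 1 symbol, 0 with several, 1719 with none). The symbols of the 10 members matched the RefSeq gene table. With limma 3.58.1 in R 4.3.3, intensities were corrected by normexp (offset 16), quantile normalized and put on the log2 scale. The filter kept 10243 probes whose detection p was under 0.01 on the arrays of 2 or more of the 12 groups, both arrays each, and the brightest kept probe stood for each of 7272 genes. The 2 technical replicates were averaged. Each gene's 12 averages were fitted with a 24 h harmonic and a mean per genotype (6 residual and 3.32 prior degrees of freedom), with Benjamini-Hochberg adjustment over all genes at 0.05. The fit was tested on simulated data. The number of arrays limits the precision.

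Members and gene lists were chosen with earlier results of these data known. Named were the members, measured relatives, up to 4 genes called per list by size (or the 1 with the largest difference), and the 2 genes most correlated with each member; exceptions are stated. Summed marker signals are sums of linear normalized intensities. Alternatives covered background, scaling, filter, probes, replicates, slide, variance model and left-out samples.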

Additional observations from a re-analysis of the deposited data

How the results depend on the processing

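Sp5 kept its direction under every alternative tried, with differences of -2.00 to -0.76 (log2), and passed in all that gave a test except slides as fixed terms, where the SE rose from 0.15 to 0.42. The number of members called in daily mean (1) was 2 with median scaling, 2 by the exact permutation at an unadjusted p under 0.05, 0 with slides as fixed terms, and 3 with arrays as separate samples, with or without a replicate block. For the lists (12 genes) the counts were 20 with median scaling, 30 with separate arrays, 29 with the replicate block, 21 with group as a random block, 0 with slides as fixed and 2 with slides as random terms, 7 with time as a factor, and 0 to 13 with a time left out. Members rhythmic in WT (0) were 1 with median scaling or group as a random block and 3 with separate arrays, with or without the replicate block. Members rhythmic in DKO (0) were 3 with separate arrays and 4 with the replicate block. Separate arrays treat technical replicates as independent. Arrays with the same number shared only a number, since their deviations from the group mean correlated at -0.05 to 0.05 over 66 pairs of groups.

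Directions turned for members that were not called. With a time or an array left out, Klf2 was -0.13 to 0.10 (0.10 without ZT4, 0.01 without ZT16) and Klf15 -0.20 to 0.052. Klf3 was 0.28 within slide 2. Klf9 was -0.009 with median scaling and -0.11 within slide 2. Klf13 was 0.11 with slides as fixed terms and 0.31 for slide 2 alone, and Klf15 was 0.76 and 0.58. The cause was not tested. Over all genes, the count called in daily mean (677, 46.4% of them higher) was 2182 (8.52% higher) with median scaling, 123 with slides as random terms and 0 as fixed terms. Signal near background limits Klf4, Klf10, Klf11 and Klf15.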
